A study of Mus musculus with 51 samples.

Results

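The Myc network is a set of transcription factors that dimerize through a shared helix-loop-helix and leucine zipper domain. Its members in these data were taken by gene symbol as Myc, Mycn, Mycl, Max, Mxd1, Mxd3, Mxd4, Mxi1, Mnt and Mlx, which are 10 of the 40077 mouse genes in the tables. Bulk RNA-seq was measured in 51 libraries, of which 35 came from tumors grown under the skin and 16 from cells in culture, and which fell into 16 groups and 6 experiments. The study asked what changed when Uba1, the gene for the E1 enzyme at the start of ubiquitin conjugation, was depleted, overexpressed or inhibited.

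The B16-BL6 melanoma line was grown in female C57BL/6 mice a few weeks old as sgNC tumors (n = 3) and sgUba1 tumors (n = 4). The Myc-CaP prostate line was grown in male FVB mice of like age in 3 experiments. These compared sgNC (n = 3) with sgUba1 tumors (n = 7), empty vector (EV, n = 3) with Uba1 overexpression (OE, n = 4), and vehicle (n = 6) with TAK-243 (n = 5), a UBA1 inhibitor that was given intravenously. Cultured Myc-CaP cells, which the labels call WT, were compared as untreated control or TAK-243 at 50 nM, each with or without recombinant mouse IFN-γ, with n = 2 in each of the 4 groups. Further Myc-CaP cells labelled NC or sgUba1 received PBS or IFN-γ, again with n = 2 in each of 4 groups. The sgRNA lines were expanded from single cells after CRISPR transfection, so a line may be 1 clone. The OE line carried Uba1 behind a CMV promoter in a lentivirus. Cells were injected into both flanks, and the labels do not tie tumors to mice, so the p-values measure the spread between tumors of which some may share a mouse, and between cultures that may be technical repeats.

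Myc-CaP cells derive from a mouse prostate tumor driven by a human MYC transgene under a probasin promoter. All Myc-CaP groups therefore share that transgene, and the mouse Myc row may not show it.

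MYC proteins bind DNA as partners of MAX at E-box sequences and raise transcription of genes for ribosome biogenesis, nucleotide synthesis and cell growth. MXD proteins, MXI1 and MNT compete for MAX and recruit SIN3 corepressors, and MLX pairs with some of the same repressors and with the glucose-sensing MONDO factors. MYC protein itself is short-lived and is removed by ubiquitin ligases, so its abundance is set in part after the mRNA stage, which RNA-seq does not measure.

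In GRCm38, Myc lies at chr15:61985391-61990374 on the plus strand and Max at chr12:76937269-76962201 on the minus strand. The repressors Mxd3, Mxi1 and Mnt lie at chr13:55325168-55329823, chr19:53310518-53375810 and chr11:74830920-74845725. The canonical E-box CACGTG, which reads the same on both strands, was searched in the 250 bases before each RefSeq transcript start. It was found for 3 of the 9 members that have such a window, namely Mlx, Mnt and Mxd4, and Myc was the member with no window and was not searched. Across all genes, 6.02% of 32851 windows held it. The matches are printed because they hold the binding motif of the network's own dimers in the 9 members searched, with the motif in capitals and 12 bases on each side, 5′ to 3′ on the gene's strand, from the RefSeq sequence of GRCm38.p6.
Mlx, chr11:101087238-101087267, plus strand, first base 40 bases before the start: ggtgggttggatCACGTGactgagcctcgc
Mnt, chr11:74830789-74830818, plus strand, first base 123 bases before the start: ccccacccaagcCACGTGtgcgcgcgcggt
Mxd4, chr5:34187912-34187941, minus strand, first base 219 bases before the start: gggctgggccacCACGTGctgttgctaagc
The first base counted before the start is that of the motif in capitals, while the coordinates are those of the whole stretch. These letters are a match and not a measured binding site.

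The libraries held 8652097 to 38032395 estimated counts each. The summed level of 7 melanocyte genes was 10268 to 12233 TPM (a transcript level scaled for length and library total) in B16-BL6 tumors and 4.88 to 16.3 TPM in all Myc-CaP libraries. Of the prostate epithelial genes, Foxa1 was 69.0 to 177 TPM in Myc-CaP tumors, 50.1 to 152 TPM in the cells and at most 1.38 TPM in B16-BL6 tumors. Krt8 was 22.3 to 292 TPM in Myc-CaP tumors but 1.57 to 12.2 TPM in the cells, Hoxb13 was 3.46 TPM or more in every Myc-CaP library and 0 in B16-BL6, and Krt18, Epcam and Cdh1 stayed at or below 2.13 TPM in all libraries. In B16-BL6 tumors, Uba1 was 410, 455 and 414 CPM (counts after scaling for library size) in sgNC and 208, 220, 228 and 247 CPM in sgUba1. In OE tumors it was 731, 631, 722 and 747 CPM, against 310, 278 and 292 CPM in EV. In cultured cells without IFN-γ, Uba1 was 533 and 526 CPM in NC and 295 and 283 CPM in sgUba1, and it was likewise lower in sgUba1 cells with IFN-γ. In Myc-CaP sgNC tumors, Uba1 was 320, 325 and 337 CPM. In the 7 tumors of that experiment labelled sgUba1, the level was 197, 202 and 211 CPM in 3, below every control, and 361 to 383 CPM in the other 4, above every control. The Uba1 mRNA of those 4 tumors was not below the controls, so these tumors are called labelled sgUba1 and the members are also given without the 4. The study judged depletion by UBA1 protein and DNA sequencing, which this mRNA level does not measure. It used independent guides, and the labels of these tumors do not name the guide. A further tumor, Myc-CaP sgNC replicate 2, stood apart from the other controls in several members.

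Levels of the members are compared between genes in TPM. Myc had the highest mean TPM of the 10 members in each of the 16 groups (the plot of mean TPM by group). It ran from 92.2 TPM in TAK-243 cells, with 97.5 TPM in TAK-243 cells with IFN-γ, through 174 and 187 TPM in the B16-BL6 groups and 552 to 850 TPM in Myc-CaP cells without TAK-243, to 1354 to 2034 TPM in Myc-CaP tumors. In that order, 6 of 15 pairs of neighbouring groups did not overlap between samples. Among Myc-CaP tumor groups, from EV down to OE, each group overlapped the next. The step from OE tumors down to control cells with IFN-γ was free of overlap, and so was the step from B16-BL6 sgNC tumors down to TAK-243 cells with IFN-γ.

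**Figure D1:**
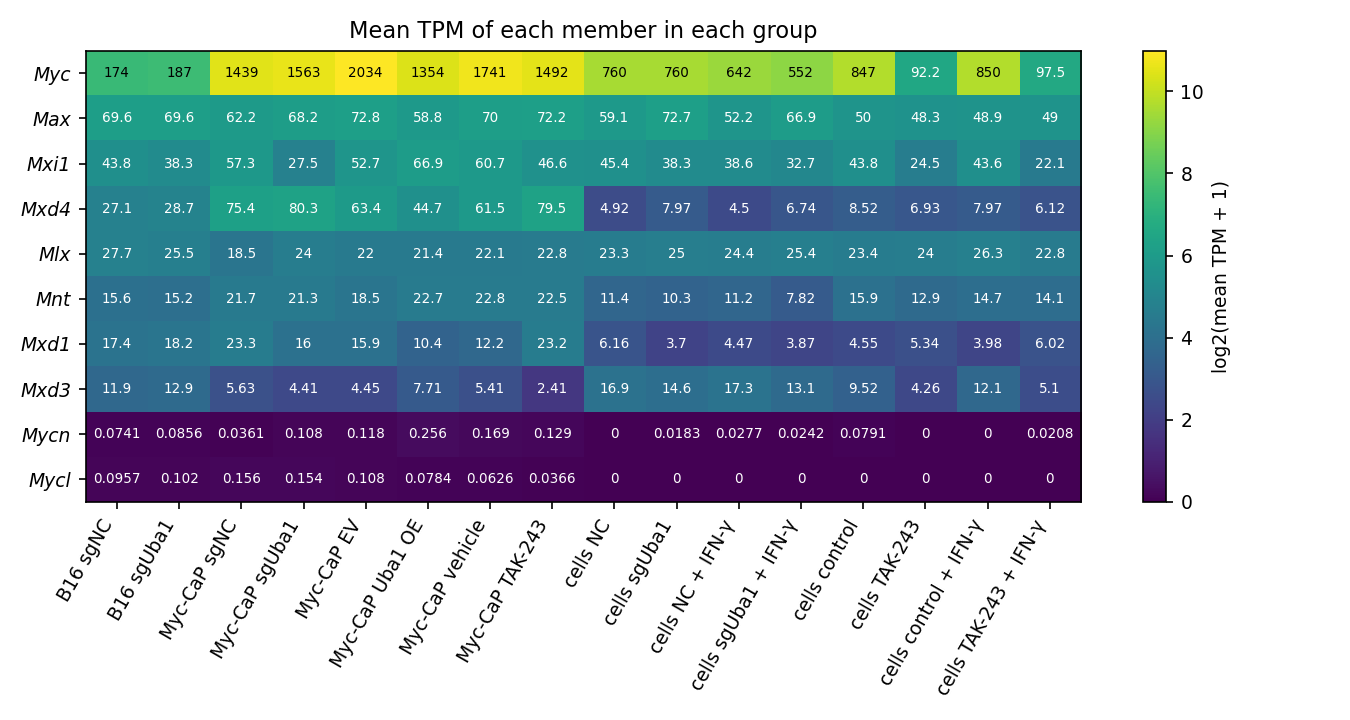
Mean TPM of the 10 members (rows) in the 16 groups (columns), with colour on a log2(mean TPM + 1) scale. Myc is the highest row in every column, and Mycn and Mycl are near 0 throughout.

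The relatives Mycn and Mycl, whose proteins can replace MYC in other tissues, were barely measured. Mycn reached at most 0.497 TPM, from at most 12 counts in a library, and Mycl at most 0.251 TPM, also from at most 12 counts. Mycl was 0 in all 16 cell libraries. Neither passed the filter on low counts in any comparison, so 8 of 10 members were tested in each.

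Max, the obligate partner, and the repressors were far below Myc in cultured cells. In control cells Max was at 50.0 ± 4.76 TPM (SD, n = 2), Mxi1 at 43.8 ± 2.03 TPM, Mlx at 23.4 ± 2.05 TPM and Mnt at 15.9 ± 0.693 TPM. Mxd3 was at 9.52 ± 0.457 TPM there, Mxd4 at 8.52 ± 1.16 TPM and Mxd1 at 4.55 ± 0.385 TPM. Mxd4 separated tumors from cultures, with 44.7 to 80.3 TPM as group means in Myc-CaP tumors and 4.503 to 8.52 TPM in the cells, and its lowest Myc-CaP tumor (26.7 TPM) lay above its highest culture (9.34 TPM). The group means of Mxd1 were 10.4 to 23.3 TPM in Myc-CaP tumors and 3.70 to 6.16 TPM in the cells, but the libraries overlapped, since labelled sgUba1 tumor replicate 4 (4.72 TPM) and OE replicate 1 (6.33 TPM) lay inside the 3.46 to 7.06 TPM of the cultures. Across the 15 neighbouring pairs of groups, none was free of overlap for Max or Mlx, 1 was for Mxd1, 3 for Mxi1, 4 each for Mxd3 and Mnt, and 5 for Mxd4. In tumors, fewer cells of a type and less RNA per cell cannot be told apart, and fibroblast markers summed to 105 to 538 TPM in Myc-CaP tumors and 5.43 to 18.8 TPM in the cells.

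The ratio of summed Myc, Mycn and Mycl to summed Mxd1, Mxd3, Mxd4, Mxi1 and Mnt, in TPM, describes the balance of the network's mRNAs. It was 1.51 ± 0.0541 (SD, n = 3) in B16-BL6 sgNC tumors and 1.70 ± 0.401 (n = 4) in sgUba1 tumors. In Myc-CaP tumors the group means were 8.35 to 13.1, and in cells without TAK-243 they were 8.44 to 10.3. In TAK-243 cells it was 1.71 ± 0.221 (n = 2), and in TAK-243 cells with IFN-γ 1.83 ± 0.139 (n = 2). The lowest value among Myc-CaP tumors, 2.45, was that of sgNC replicate 2. TPM divides by transcript length, which for Myc differed between these sets of libraries, as given below, so the ratios are not on the same footing. The Myc row of Myc-CaP libraries may also hold reads of the human transgene. Both limits hold for the Myc levels in TPM above.

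The transcript length behind the Myc row differed between the lines and with TAK-243. The deposited counts and TPM together give the mean effective length of the transcripts that took a gene's reads. It was calibrated in each library on 278 genes with a single annotated transcript, and all 278 lay within 5% of the fitted line. The line was set on these same genes, so this does not test the lengths read for genes with several transcripts, such as Myc. For Myc this mean length was 2010 to 2079 bases in the 7 B16-BL6 tumors, 1362 to 1398 bases in the 28 Myc-CaP tumors and 1358 to 1392 bases in the 12 libraries of cells without TAK-243. In the 4 libraries of TAK-243 cells it was 1815 to 1932 bases. Myc-CaP tumors and cells without TAK-243 overlapped in this length, and no other pair of sets did.

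Of the 8 annotated Myc transcripts, those of 1365 and 1362 bases hold coding sequence only, while the full-length ones are 2338, 2338 and 2186 bases. For Mnt the same measure stayed at 4590 to 4593 bases in all libraries, and for Mxd3 at 1325 to 1327 bases in those where it could be read. Max (1658 to 1930 bases), Mxi1 (2031 to 2476 bases), Mlx (1469 to 1868 bases) and Mxd4 (3245 to 3874 bases) overlapped between the sets. So did Mxd1, with a wide range of 2345 to 4667 bases and medians of 3138 bases in Myc-CaP tumors and 4186 bases in cells without TAK-243, and these lengths enter its TPM levels above. Reads of mouse Myc and reads of the human transgene that match the mouse coding sequence cannot be told apart in this row, and no value here assigns them.

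**Figure D2:**
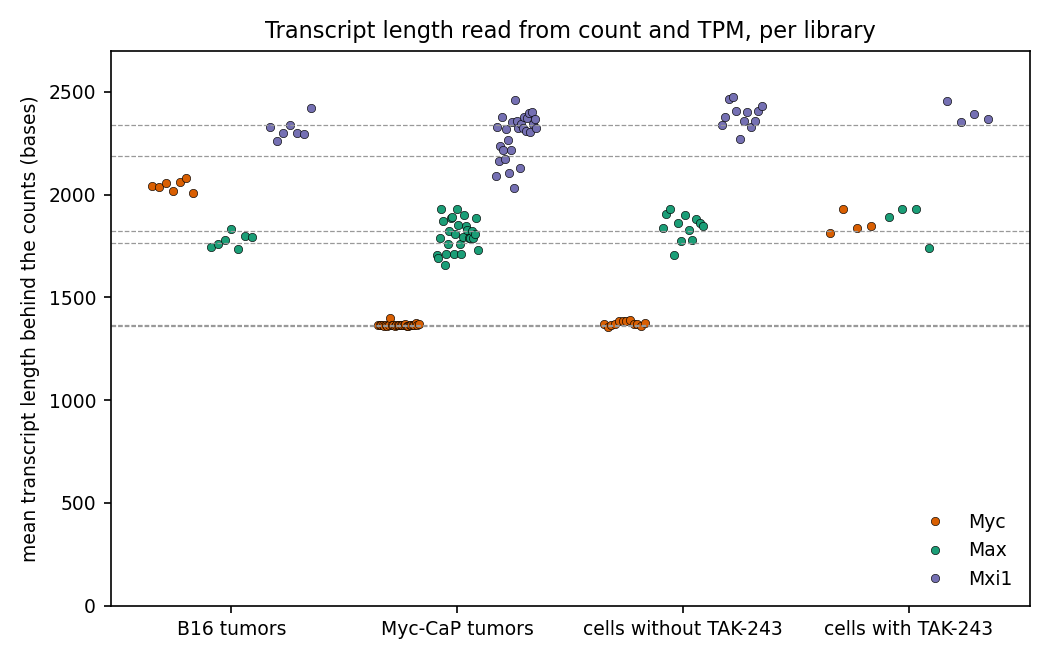
Mean transcript length behind the counts, in bases, for Myc, Max and Mxi1 in each library of 4 sets (points are libraries), with dashed lines at the lengths of annotated Myc transcripts. The Myc points lie near 1360 bases in Myc-CaP libraries without TAK-243, at 1815 to 1932 bases in TAK-243 cells and above 2010 bases in B16-BL6 tumors.

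This length matters for scale, since TPM divides by it and CPM does not. A longer transcript gives more counts, so CPM is not free of the length either where it shifts. Below, libraries are compared in CPM from the counts, and each log2 fold change and adjusted p is from the quasi-likelihood test of edgeR, adjusted over all genes tested by Benjamini and Hochberg, with a gene called changed at an adjusted p under 0.05.

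The control tumors of the 2 lines were compared for how the network differs between them. Scaled together, Myc was 1532, 392 and 1400 CPM in Myc-CaP sgNC tumors and 239, 223 and 209 CPM in B16-BL6 sgNC tumors. Each Myc-CaP tumor was above each B16-BL6 tumor, although replicate 2 lay far below the other Myc-CaP controls. Myc was called higher in Myc-CaP, with a log2 fold change of 2.31 (SE 0.471, edgeR adjusted p = 0.00478). A total of 4 of the 8 tested members were called, 2 higher and 2 lower, where 59.9% of all genes tested were called, 29.7% higher and 30.2% lower.

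Mxd4, a repressor usually linked to differentiated cells, was 199, 155 and 179 CPM in Myc-CaP and 73.9, 58.0 and 67.9 CPM in B16-BL6, higher in each Myc-CaP tumor (log2 fold change 1.42, SE 0.134, edgeR adjusted p = 1.28e-04). Mlx was lower in each Myc-CaP tumor, at 18.9, 19.96 and 18.7 CPM against 28.2, 33.0 and 28.7 CPM (log2 fold change -0.64, SE 0.107, edgeR adjusted p = 0.00185). Mxd3, a repressor expressed in dividing cells, was 6.47, 1.69 and 4.37 CPM against 8.88, 9.57 and 9.16 CPM (log2 fold change -1.13, SE 0.397, edgeR adjusted p = 0.0437), and its call was lost in 4 of the 6 fits without 1 library, those without Myc-CaP replicate 3 or any B16-BL6 replicate, at adjusted p of 0.0962 to 0.110. Without Myc-CaP sgNC replicate 2, Mxd1 went from 0.06 to a log2 fold change of -0.53 (edgeR adjusted p = 0.00287). Line, the human MYC transgene, strain, sex, experiment and depth go together here and cannot be told apart. The Myc row of the Myc-CaP tumors may hold transgene reads. Totals were 10668740 to 12552908 counts in the Myc-CaP controls and 28570255 to 35693203 in the B16-BL6 controls.

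Among the wider network in the same contrast, Mga, which encodes a large MAX partner, was lower in Myc-CaP by a log2 fold change of -3.53, and 11 of 17 MAX-like factors and cofactors were called, 5 higher and 6 lower, where 59.9% of all genes were. Of 40 MYC-activated genes, 17 were called higher and 6 lower, beside 29.7% and 30.2% of all genes, with a median log2 fold change of 0.26 beside 0.00 over all genes. Of the 20 proliferation genes, 13 were called lower and none higher.

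Depletion of Uba1 in B16-BL6 tumors left no member called. Myc was 244, 228 and 217 CPM in sgNC and 234, 250, 219 and 241 CPM in sgUba1, so the groups overlapped (log2 fold change 0.04, SE 0.0692, edgeR adjusted p = 0.815). Mxi1, which encodes a repressor that competes with MYC for MAX, was 68.6, 64.7 and 64.0 CPM in sgNC and 55.3, 53.8, 79.6 and 36.9 CPM in sgUba1, again with overlap. All 8 tested members overlapped between the groups, with log2 fold changes from -0.22 to 0.06. By edgeR 0 of 8 members were called, 0 had an unadjusted p under 0.05, and DESeq2 and limma-voom called 0 as well. The background was 0.724% of genes tested, and 2861 genes had an unadjusted p under 0.05.

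In Myc-CaP tumors Mxi1 was lower in the tumors labelled sgUba1. It was 61.1, 101 and 67.9 CPM in sgNC, and in the 7 tumors labelled sgUba1 the lowest, median and highest values were 29.4, 35.7 and 53.8 CPM. Each tumor labelled sgUba1 was below each control. The log2 fold change was -1.03 (SE 0.189, edgeR adjusted p = 0.0271). Mxi1 was the only member called of 8 tested, where 3.04% of genes tested were called, 1.89% lower.

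The 3 tumors with low Uba1 had 36.5, 53.8 and 33.4 CPM of Mxi1 and the 4 with high Uba1 had 29.4 to 38.8 CPM, so both sets lay below the controls. Without the 4 tumors the log2 fold change was -0.90 and the call was lost (edgeR adjusted p = 0.158). It was also lost in 6 of the 10 fits without 1 library: without sgNC replicate 2 (-0.79, adjusted p = 0.121), without sgNC replicate 3 (adjusted p = 0.0697) and without each of labelled sgUba1 replicates 4 to 7 (adjusted p = 0.0524 to 0.0631). The myeloid marker genes moved in the same contrast, with a summed level of 53.9 to 95.5 TPM in sgNC and 91.3 to 149 TPM in tumors labelled sgUba1, and 3 of 7 tested were called higher. Their part in the Mxi1 result was not tested.

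Myc did not separate these groups. It was 1546, 398 and 1415 CPM in sgNC and 983 to 1433 CPM, median 1212 CPM, in the tumors labelled sgUba1 (log2 fold change 0.10, SE 0.319, edgeR adjusted p = 0.882), and leaving out sgNC replicate 2 moved the value to -0.31. Without the 4 high-Uba1 tumors it was 0.20 (SE 0.456, edgeR adjusted p = 0.847), Max was 0.35, Mxd4 0.43, Mxd1 -0.37 and Mnt -0.08, none of them called, and Mxd3 (from -0.41 to 0.04) and Mlx (from 0.42 to -0.04) changed sign without a call. That control tumor also had the highest Mxd1 (71.3 CPM against 26.4 and 29.9 CPM) and the lowest Mxd3 (1.71 CPM against 6.53 and 4.42 CPM) of the controls. Its fibroblast markers summed to 297 TPM against 172 and 189 TPM, and its prostate epithelial markers to 753 TPM against 472 and 422 TPM. Myeloid markers were also highest there, at 95.5 TPM against 53.9 and 68.9 TPM. Skeletal muscle markers were lowest there, at 4.25 TPM against 8.33 and 6.80 TPM. The part of these markers in the member values was not tested. Mlx split the tumors labelled sgUba1 in the same way as Uba1, at 17.8 to 19.9 CPM in the 3 with low Uba1 and 29.5 to 33.5 CPM in the 4 with high Uba1, against 18.9 to 20.2 CPM in sgNC. Max and Mxd4 split the other way, at 80.3 to 93.3 CPM and 222 to 282 CPM in the 3 and 55.1 to 69.3 CPM and 125 to 163 CPM in the 4.

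Uba1 overexpression in Myc-CaP tumors left no member called. Some members did not overlap between the groups, and how many of all genes did so was not counted. Myc was 1637, 1649 and 1331 CPM in EV and 1040, 1055, 867 and 1303 CPM in OE, lower in each OE tumor though by little in the nearest pair (log2 fold change -0.53, SE 0.140, edgeR adjusted p = 0.145). Mxi1 was 68.0, 69.9 and 68.5 CPM in EV and 109, 94.4, 96.8 and 76.4 CPM in OE, higher in each OE tumor (log2 fold change 0.45, SE 0.121, edgeR adjusted p = 0.145). Max (69.7 to 77.4 CPM in EV, 55.3 to 66.9 CPM in OE, edgeR adjusted p = 0.304) and Mxd4 (142 to 155 CPM in EV, 70.7 to 139 CPM in OE, edgeR adjusted p = 0.303) were also lower in each OE tumor and not called. Mxd3 had the largest log2 fold change of the members (0.86, edgeR adjusted p = 0.299). It was 2.12 to 4.26 CPM in EV and 3.34 to 9.91 CPM in OE, with overlap. EdgeR called 0 of 8 members, with 2 at an unadjusted p under 0.05, beside a background of 0.0269% of genes tested and 2698 genes at an unadjusted p under 0.05. DESeq2 called both genes, Myc at an adjusted p of 0.0363 and Mxi1 at 0.0361, and limma-voom called 0. Without OE replicate 4, edgeR called Mxi1 (log2 fold change 0.55, adjusted p = 0.0477). Summed T and NK markers were 12.9 to 17.8 TPM in EV and 4.33 to 8.01 TPM in OE. Skeletal muscle markers were 7.41 to 8.18 TPM in EV, 329 and 87.8 TPM in OE replicates 1 and 2 and 4.63 and 6.78 TPM in the other OE tumors, and replicate 1 had the highest Mxi1 and the lowest Max and Mxd4. The part of these markers in the member values was not tested.

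TAK-243 in Myc-CaP tumors gave Mxd3 the largest difference of the members. Mxd3 in vehicle tumors had a lowest, median and highest value of 2.82, 4.11 and 5.43 CPM, and in TAK-243 tumors it was 0.965, 1.85, 2.04, 1.15 and 2.74 CPM, from 33 to 88 counts. All TAK-243 tumors were below all vehicle tumors, although the nearest pair differed by little. The log2 fold change was -1.21 (SE 0.260) and missed the threshold in edgeR (adjusted p = 0.0877), whereas DESeq2 called it (adjusted p = 0.00123), and so did edgeR without TAK-243 replicate 5 (-1.44, adjusted p = 0.0306).

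Myc in vehicle tumors was 817, 1451 and 1589 CPM as lowest, median and highest, and in TAK-243 tumors 1932, 985, 798, 777 and 963 CPM. Thus 4 of the 5 treated tumors lay below 5 of the 6 vehicle tumors, but replicate 1 lay above all of them (log2 fold change -0.31, SE 0.240, edgeR adjusted p = 0.567). In replicate 1 skin keratinocyte markers summed to 61.9 TPM, against 0.0712 to 0.359 TPM in the other TAK-243 tumors and 0.0283 to 0.230 TPM in vehicle tumors, and without it the log2 fold change of Myc was -0.62. Mxd1, the member known for induction in terminal differentiation, was 31.4, 34.3, 39.3, 47.0 and 49.1 CPM against 16.2 to 37.5 CPM in vehicle tumors, with overlap (log2 fold change 0.60, SE 0.181, edgeR adjusted p = 0.173). EdgeR called 0 of 8 members, 2 had an unadjusted p under 0.05, limma-voom called 0 and DESeq2 called 1, Mxd3. The background was 0.145%, with 2587 genes at an unadjusted p under 0.05. Summed myeloid markers were 117 to 160 TPM in TAK-243 tumors and 43.0 to 67.5 TPM in vehicle tumors, with 3 of 8 tested called higher, and their part in the member values was not tested.

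**Figure D3:**
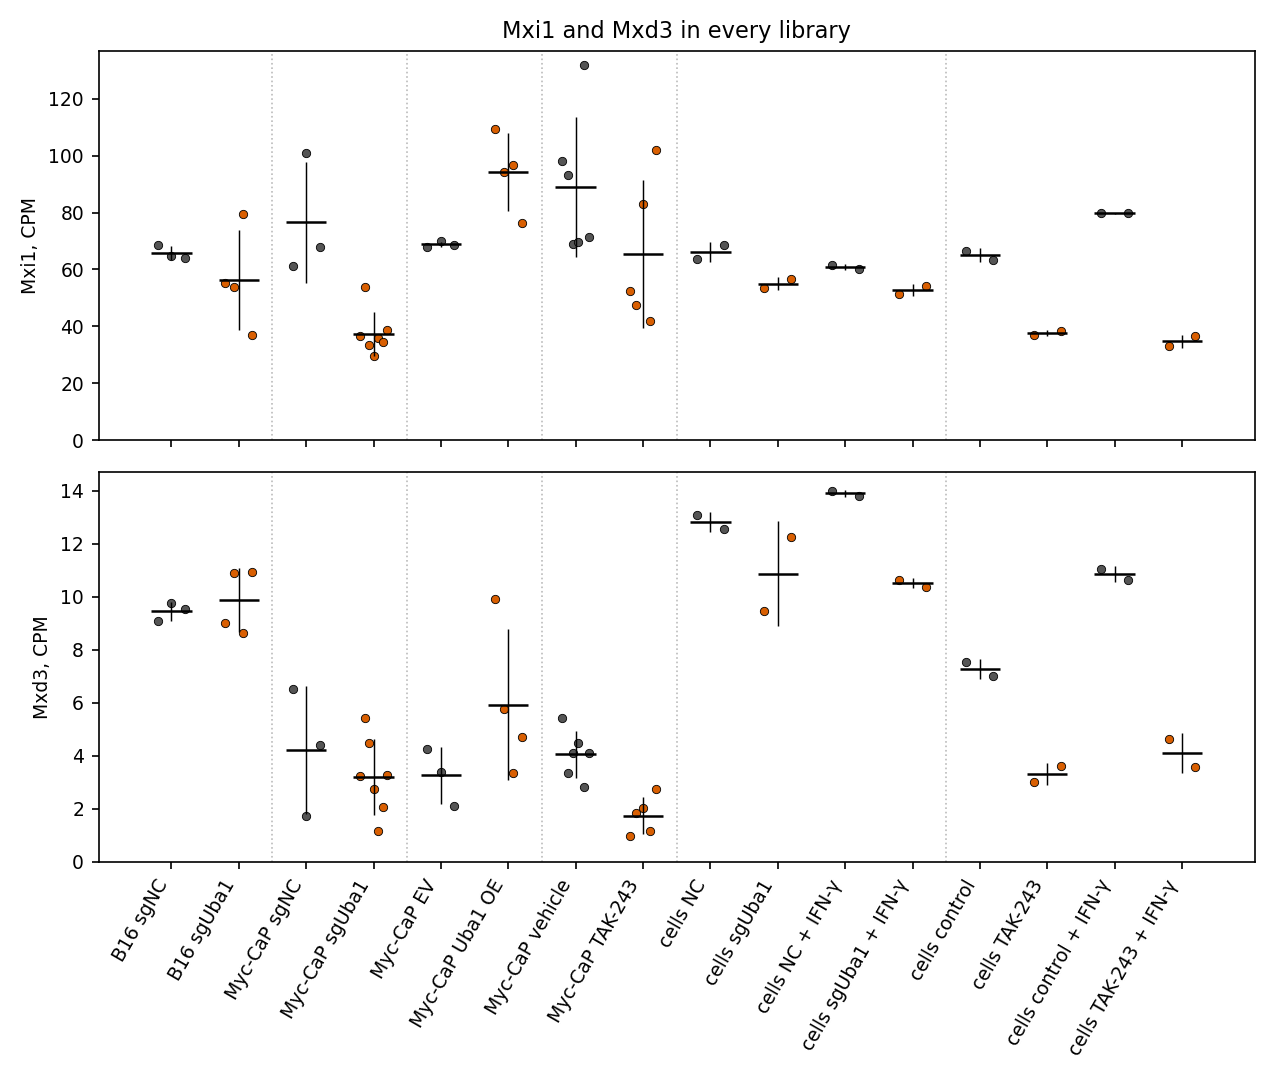
Mxi1 (top) and Mxd3 (bottom) in CPM in every library, by group, with points for libraries, horizontal bars for group means and vertical lines for 1 SD. Mxi1 in tumors labelled sgUba1 lies at 29.4 to 53.8 CPM, below the 3 sgNC tumors, and Mxd3 in TAK-243 tumors lies at 0.965 to 2.74 CPM, below the vehicle tumors.

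The clearest change of the network came with TAK-243 in cultured Myc-CaP cells. The Myc row was 676 and 661 CPM in control cells and 110 and 104 CPM in TAK-243 cells. Both treated cultures were far below both controls, a fall of 6.23-fold in CPM (log2 fold change -2.64, SE 0.0352, edgeR adjusted p = 7.78e-31). Mean TPM of the row was 847 in these control cells and 92.2 in these TAK-243 cells. Its mean transcript length was 1358 to 1371 bases in the former and 1815 to 1932 bases in the latter. Reads of mouse Myc and of the human transgene cannot be told apart in this row, so the fall is not assigned to either. With IFN-γ the Myc row was 797 and 784 CPM without and 119 and 112 CPM with TAK-243, a fall of 6.85-fold in CPM (log2 fold change -2.78, SE 0.0346, edgeR adjusted p = 1.47e-31). The call held in each of the 16 fits without 1 library, at log2 fold changes from -2.82 to -2.63.

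**Figure D4:**
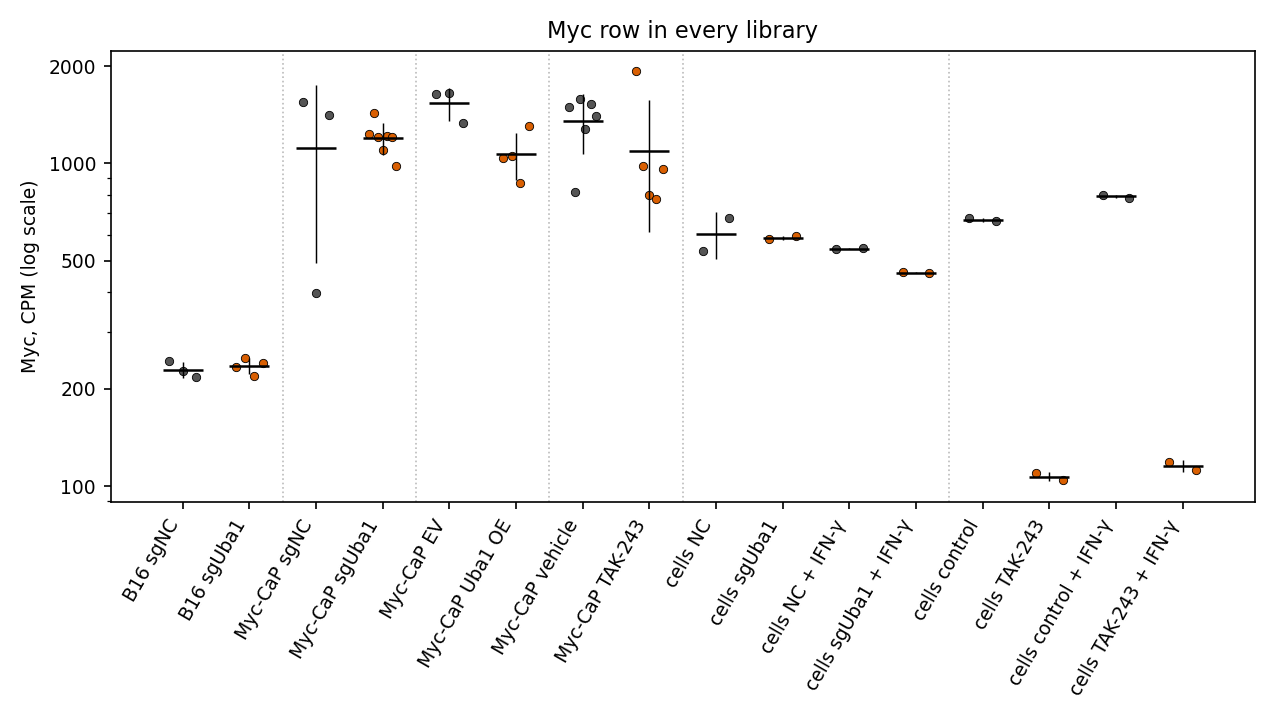
CPM of the Myc row in every library (points), by group, on a log scale, with horizontal bars at group means and vertical lines for 1 SD. TAK-243 cells lie at 104 to 119 CPM, B16-BL6 tumors at 217 to 250 CPM, and all other libraries at 398 CPM or above.

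Of the 5 repressor genes of the network, Mxi1, Mxd3, Mxd4 and Mnt fell too, and Mxd1 was not called (log2 fold change -0.13, edgeR adjusted p = 0.348). Mxi1 was 66.6 and 63.2 CPM in control cells and 36.9 and 38.4 CPM in TAK-243 cells (log2 fold change -0.79, SE 0.0660, edgeR adjusted p = 9.27e-12), with both treated cultures lower. Mxd3 was 7.53 and 6.99 CPM against 3.01 and 3.61 CPM, again with both lower (log2 fold change -1.15, SE 0.191, edgeR adjusted p = 4.45e-06). Mxd4 (18.7 and 22.0 CPM against 15.2 and 15.7 CPM, log2 fold change -0.40) and Mnt (50.1 and 46.7 CPM against 40.4 and 39.2 CPM, log2 fold change -0.28) also fell, at edgeR adjusted p of 0.00129 and 8.60e-04. Max, the shared partner, was 60.01 and 54.3 CPM against 58.7 and 56.2 CPM, and the cultures overlapped (log2 fold change 0.01, SE 0.0619, edgeR adjusted p = 0.884). Of 8 members, 5 fell and none rose, where 66.3% of genes tested were called, 32.3% higher and 34.0% lower.

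With IFN-γ, 7 of 8 members fell with TAK-243, all but Mxd1 (-0.04, edgeR adjusted p = 0.796), and none rose, beside a background of 68.2%, 32.0% higher and 36.2% lower. Mxi1 was 79.9 and 79.7 CPM without and 33.2 and 36.4 CPM with TAK-243, so treated cultures were lower by a log2 fold change of -1.19 (SE 0.0650, edgeR adjusted p = 3.69e-16). Mxd3 fell by 1.41, Mxd4 by 0.47, Mlx by 0.34, Mnt by 0.22 and Max by 0.14 on the log2 scale. The edgeR adjusted p of Max was 0.0467, and its call was lost in 4 of 8 fits without 1 library, those without any culture of the contrast, at 0.0911 to 0.129, and that of Mnt (0.00610) in 2, without control with IFN-γ replicate 1 (0.0506) and without TAK-243 with IFN-γ replicate 2 (0.0655). DESeq2 did not call Max (adjusted p = 0.264) or Mnt (0.0813). On the TPM scale Max (0.00), Mnt (-0.06, limma adjusted p = 0.522) and Mlx (-0.19, limma adjusted p = 0.159) were not called, and Mxd1 was called higher (0.48, limma adjusted p = 0.0479). The mean transcript length of Mxd1 was 4667 and 4666 bases in control cells with IFN-γ and 3968 and 3028 bases in TAK-243 cells with IFN-γ.

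The 2 TAK-243 effects were compared by an interaction term. The fall of Mxi1 was larger with IFN-γ by a log2 value of -0.41 (SE 0.0936, edgeR adjusted p = 0.0131), the only member called of 8, where 2.38% of genes tested were called, 2.01% lower. The call was lost in 7 of the 8 fits without 1 library, all but that without control replicate 1, at adjusted p of 0.0503 to 0.200. On the TPM scale the value was -0.14 and not called (limma adjusted p = 0.544), and DESeq2 gave it no adjusted p. The interaction of Myc was -0.14 (SE 0.0498, edgeR adjusted p = 0.165).

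In cells labelled sgUba1, Mxd4 and Max rose, Mxi1 fell and Myc was not called. Mxd4 was 11.3 and 11.96 CPM in NC and 19.3 and 19.1 CPM in sgUba1 cells, higher in both (log2 fold change 0.72, SE 0.0832, edgeR adjusted p = 9.26e-05). Max was 62.9 and 66.9 CPM against 78.6 and 79.5 CPM, higher in both (log2 fold change 0.28, SE 0.0463, edgeR adjusted p = 8.77e-04). Mxi1 was 63.7 and 68.7 CPM against 53.3 and 56.5 CPM, lower in both (log2 fold change -0.27, SE 0.0561, edgeR adjusted p = 0.00375). These 3 of 8 members were called, beside a background of 29.7%, 16.2% higher and 13.6% lower.

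Myc was 534 and 677 CPM in NC and 583 and 594 CPM in sgUba1 cells, inside the spread of the controls (log2 fold change -0.04, SE 0.0846, edgeR adjusted p = 0.768). Its direction rested on which NC culture was kept: it was -0.20 (edgeR adjusted p = 3.52e-04) without NC replicate 1 and 0.14 (adjusted p = 0.00710) without NC replicate 2.

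With IFN-γ, Myc was 544 and 545 CPM in NC and 459 and 459 CPM in sgUba1 cells, lower in both (log2 fold change -0.25, SE 0.0847, edgeR adjusted p = 0.0377). Mnt, a repressor made in resting and dividing cells alike, was 35.6 and 36.2 CPM against 23.6 and 26.8 CPM, lower in both (log2 fold change -0.51, SE 0.0799, edgeR adjusted p = 3.95e-04). Mxd4 (0.65) and Max (0.35) rose again, and Mxd3 (-0.40) and Mxi1 (-0.21) fell, on the log2 scale. In all 6 of 8 members were called, 2 higher and 4 lower, beside a background of 39.4%, 17.0% higher and 22.4% lower.

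Of these, Mxd4, Max and Mnt held in all 8 fits without 1 library. The Myc call was lost in 6 of them, all but those without an unstimulated NC culture, at adjusted p of 0.0559 to 0.241. The calls of Mxd3 and Mxi1 were lost in 4 each, for Mxd3 without any culture of the contrast (0.0586 to 0.103) and for Mxi1 without NC with IFN-γ replicate 1, sgUba1 replicate 2 or either sgUba1 culture with IFN-γ (0.0591 to 0.296). The interaction of sgUba1 with IFN-γ called 0 of 8 members in edgeR, DESeq2 and limma-voom, with 1 at an unadjusted p under 0.05, beside a background of 4.64% and 3342 genes at an unadjusted p under 0.05. The lowest adjusted p was that of Mnt (-0.34, SE 0.113, edgeR adjusted p = 0.112). Without NC replicate 2, it called 2 members.

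IFN-γ alone was measured against control cells in both cell experiments. In the TAK-243 experiment, Myc was 676 and 661 CPM without and 797 and 784 CPM with IFN-γ, higher in both (log2 fold change 0.24, SE 0.0296, edgeR adjusted p = 2.64e-07). Mxd3 (0.58), Mlx (0.36) and Mxi1 (0.30) were called higher as well on the log2 scale of counts. These 4 of 8 members compare with a background of 29.0%, 19.6% higher. The call of Mlx was lost without control replicate 1 (adjusted p = 0.0506) or control with IFN-γ replicate 1 (0.0536).

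On the TPM scale none of the 4 was called, and Myc was 847 TPM without and 850 TPM with IFN-γ. There the median of all genes was -0.15, beside 0.04 in the count fit, and Mxi1 was at -0.01. In the NC cells, IFN-γ left Myc at 544 and 545 CPM from 534 and 677 CPM (log2 fold change -0.15, SE 0.0846, edgeR adjusted p = 0.307), and 0 of 8 members were called in edgeR, DESeq2 and limma-voom, none at an unadjusted p under 0.05, beside a background of 3.88% and 3572 genes at an unadjusted p under 0.05. Without NC replicate 1, it called 2 members.

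**Figure D5:**
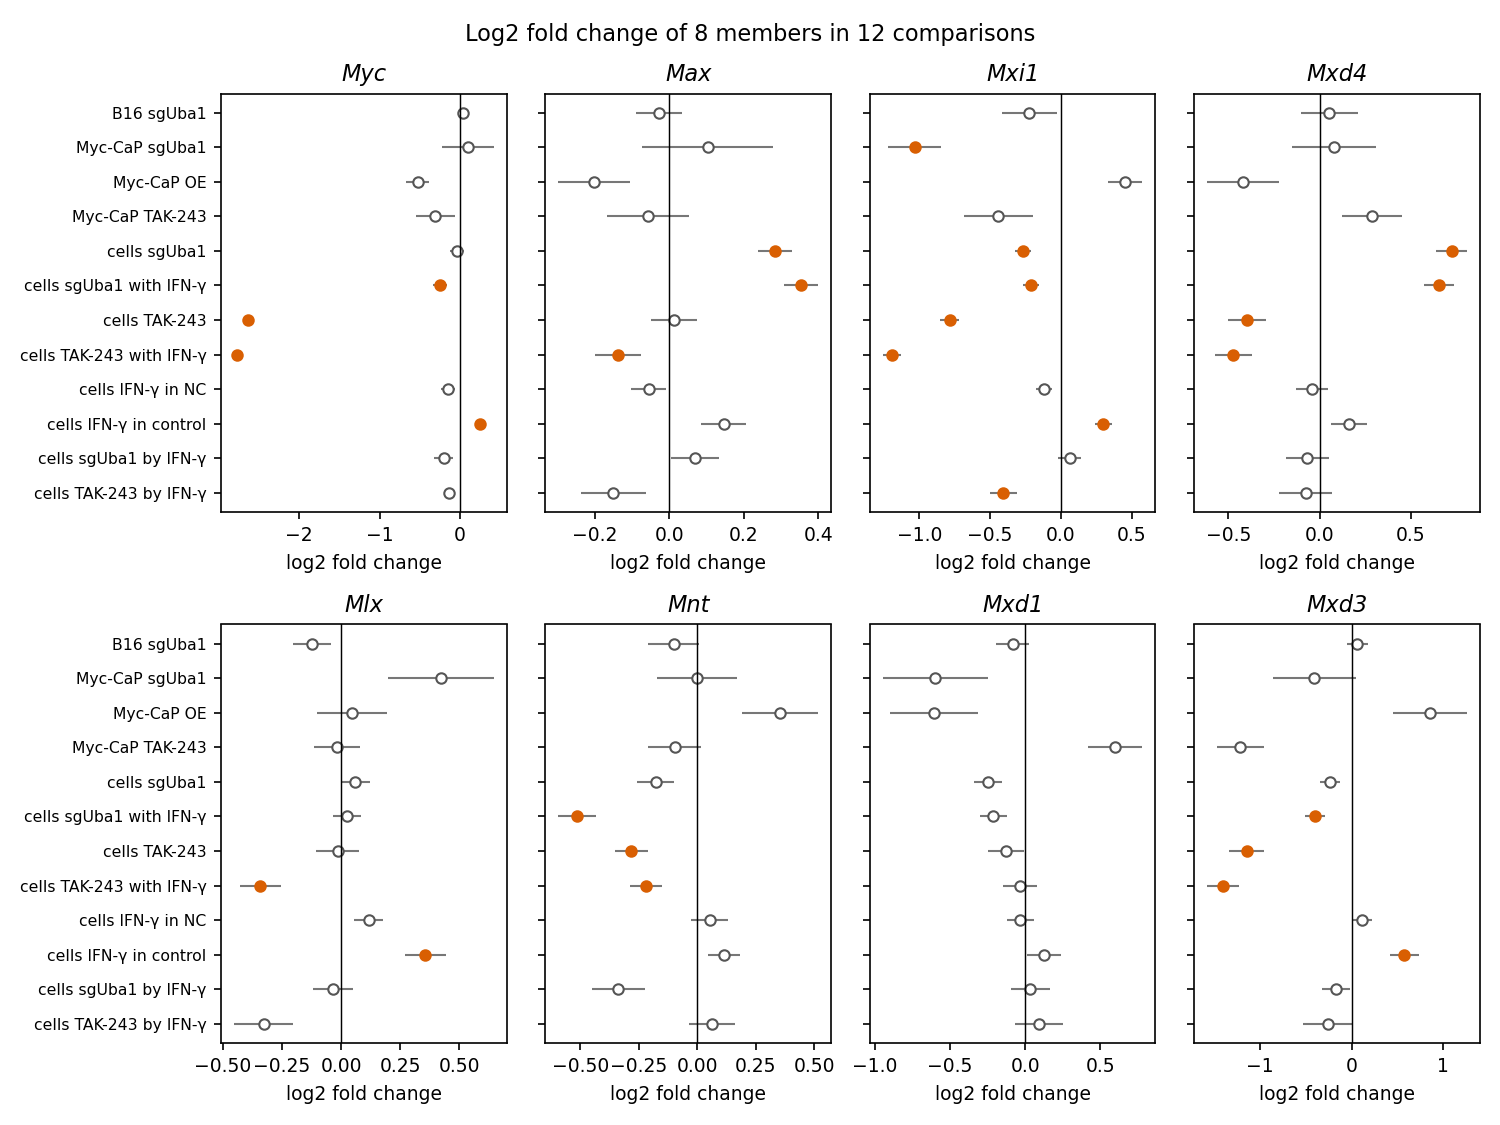
Log2 fold change of the 8 tested members in 12 comparisons within experiments, 1 panel for each member, with bars for 1 standard error and filled points for an edgeR adjusted p under 0.05. Myc stands at -2.64 and -2.78 in TAK-243 cells and within 0.53 of 0 elsewhere, and Mxi1 is called in 7 of the 12 comparisons.

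Over these 12 comparisons, Mxi1 was called in 7, 6 of them lower, Myc, Mxd3 and Mxd4 in 4 each, Max and Mnt in 3 each, Mlx in 2 and Mxd1 in none. The comparisons within a cell experiment share libraries, so the counts are not independent of each other.

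The genes that MYC acts on were described by lists taken from textbook knowledge. In TAK-243 cells, 34 of 40 MYC-activated genes were called, 21 lower and 13 higher, with a median log2 fold change of -0.14 beside 0.03 over all genes. Those with the largest changes were Srm (-1.80), which makes spermidine, Cad (-1.19), which starts pyrimidine synthesis, the amino acid transporter gene Slc7a5 (-1.04) and the serine hydroxymethyltransferase gene Shmt1 (-0.95). Of 7 tested genes known to be repressed by MYC, 4 rose and 2 fell, beside the 66.3% above. Ddit3 (3.87), a stress-response factor, Btg2 (2.59), an antiproliferative gene, and Cdkn1a (2.16), the p21 inhibitor of cyclin-dependent kinases, rose, and Cdkn2b (-0.78) fell. With IFN-γ the counts were 12 higher and 22 lower of 40, and 4 higher and 3 lower of 7.

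Of 20 proliferation genes in TAK-243 cells, 13 were called lower and 4 higher, where 34.0% of all genes were lower and 32.3% higher. Rrm2 (-1.93), Ccnb2 (-1.45) and E2f1 (-1.19) fell and Bub1 (0.87) rose. Among 15 genes for MYC protein turnover, 8 rose, such as the MYC deubiquitinase gene Usp28 (1.17), the PP2A inhibitor gene Cip2a (0.93) and the ubiquitin ligase gene Fbxw7 (0.68), and 4 fell, such as Fbxo28 (-0.96). Among 17 MAX-like factors and cofactors, 5 rose and 4 fell, a smaller share than the 66.3% of all genes called, among them the corepressor genes Sin3b (1.54) and Hdac1 (0.98) and the E-box factor genes Tfap4 (-1.91) and Usf2 (-1.02).

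In cells labelled sgUba1, 14 of 40 MYC-activated genes were called, 11 lower and 3 higher, with a median of -0.04 beside 0.00 over all genes, where 29.7% of all genes were called, 13.6% lower. The largest were the nucleolar and ribosome biogenesis genes Nop56 (-0.45), Polr1b (-0.41), Bop1 (-0.38) and Mybbp1a (-0.37). With IFN-γ 20 were lower and 2 higher, led by Mybbp1a (-0.63) and Bop1 (-0.62), with a median of -0.10 beside 0.01, where 39.4% of all genes were called, 22.4% lower. Of 7 tested MYC-repressed genes, 4 fell and none rose in both, among them Ndrg2 (-0.82) and Cdkn1a (-0.54) without IFN-γ. Proliferation genes were 6 lower and 3 higher of 20, and 13 lower and 2 higher with IFN-γ, when Plk1 (-0.85) and Aurkb (-0.76) fell most. Leaving out 1 library moved the count of MYC-activated genes between 7 (without sgUba1 replicate 2) and 24 (without NC replicate 1), and with IFN-γ between 14 (without sgUba1 with IFN-γ replicate 1) and 24 (without NC replicate 1).

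With IFN-γ alone in the TAK-243 experiment, 22 of 40 MYC-activated genes were called higher and 7 lower, where 29.0% of all genes were called, led by Ldha (0.45), the lactate dehydrogenase gene, and in NC cells 1 was called, Eif4a1 (0.21), which became 17 without NC replicate 1.

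In tumors, few genes of these lists were called. In tumors labelled sgUba1, 1 of 40 MYC-activated genes was called, Slc3a2 (-0.66, edgeR adjusted p = 0.0420), where 3.04% of all genes tested were called. None of the 40 was called without sgNC replicate 2. In the B16-BL6, OE and TAK-243 tumor comparisons, 0 genes of the 5 lists were called by edgeR or limma-voom. DESeq2 called 1 in B16-BL6, 1 in OE and 15 in TAK-243 tumors, where it called 528, 706 and 542 of all genes.

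The proliferation genes were all above 0 in OE tumors, 20 of 20 with a median log2 fold change of 0.52 beside 0.00 over all genes, and 10 had an unadjusted p under 0.05. In TAK-243 tumors 0 of 20 were above 0, with a median of -0.77 beside 0.01, and 19 had an unadjusted p under 0.05. DESeq2 called 14 of these 20 lower, and edgeR called 9 without TAK-243 replicate 5. Of MYC-activated genes, 1 of 40 was above 0 in TAK-243 tumors, with a median of -0.25 and 7 at an unadjusted p under 0.05. In OE tumors 28 of 40 were above 0, with a median of 0.10 and 3 at an unadjusted p under 0.05. Of all genes tested, 2587 of 17299 in TAK-243 tumors and 2698 of 14853 in OE tumors had an unadjusted p under 0.05. The MYC-activated genes were thus close to that share in TAK-243 tumors and below it in OE tumors.

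The genes most like each member over the 51 libraries were named by Pearson's r of log2 CPM, after centring each of the 6 experiments on its mean, among 13328 genes. For Myc these were Klf15 (r = 0.948), Agtr1a (0.940) and Fkbp5 (0.928), with Spearman's rho of 0.886, 0.840 and 0.784. Without the 2 libraries farthest from the median of Myc, the r of Klf15 was 0.950, and over the 35 tumors alone the values of r were 0.827, 0.795 and 0.772. The TAK-243 cells carry much of the range of Myc, and their contrast with control cells remains when 2 libraries are left out. Libraries of an experiment also share its processing.

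For Mxd3 the most alike were the histone genes H2bc12 (r = 0.912), H3c7 (0.911) and H2bc8 (0.908), whose near-identical copies make their counts uncertain. For Mxi1 they were Sars (0.871), Aldh1l2 (0.857) and Gbe1 (0.856), and for Mxd4 they included Selenop (0.885) and Ctso (0.862). Those of Max and Mlx were led by Lhpp (0.792) and Slc25a12 (0.824). Mnt had no gene above 0.641, the r of Lcmt2.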

How the data were processed

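Bulk RNA-seq of 51 mouse libraries was deposited as 2 tables over the same genes. The authors deposited expected counts per gene, estimated with kallisto on build mm10 per the submitters' processing notes, and rounded here to whole numbers. The authors also deposited TPM, scaled for length, used for levels between genes and as an alternative. The annotation used for counting is not given in the sources used here, and GENCODE M21 on GRCm38 gave positions. The labels describe poly-A RNA and the study's methods describe removal of ribosomal RNA. The 2 tables hold no column of per-sample values that was not used.

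Groups came from the labels. Each tumor experiment was fitted alone, and the 8 libraries of a cell experiment together, in R 4.3.3 with edgeR 4.0.16 (filterByExpr, TMM factors, quasi-likelihood test, Benjamini-Hochberg adjustment over all genes tested, threshold 0.05). CPM use the TMM factors, and a fold change is the first-named group over its control. The fits were tested on simulated data. Totals ran from 8652097 to 38032395 counts. No pair of replicates was identical, and each of 75 pairs differed beyond counting noise (lowest chi-square per degree of freedom 1.84).

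Mean transcript length was read from count over TPM. Alternatives were DESeq2 1.42.0, limma-voom and limma 3.58.1 on log2(TPM + 1) with a pseudocount of 1, RLE factors, no filter, a replicate block, and each library left out. One more, without the 4 tumors labelled sgUba1 with high Uba1, was chosen after seeing the data. Named genes are all 10 members, Uba1, up to 4 called genes of largest change per list and comparison, and the 3 genes of highest r per member, and a few genes that these rules or the marker lists name are not reported here. The members, lists and tests were chosen with earlier results of these data known, and the lists hold textbook genes.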

Additional observations from a re-analysis of the deposited data

Results flagged for a closer look

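Single libraries stood far from the rest of their group for Myc. Myc was 817 CPM in vehicle tumor replicate 2, the lowest of 6, where the other 5 had 1279 to 1589 CPM. On the log2 scale of CPM, on which these checks were made, the gap was 0.674 of the group's range. Myc was 1932 CPM in TAK-243 tumor replicate 1, the highest of 5, where the other 4 had 777 to 985 CPM, a gap of 0.740 of the log2 range. The latter tumor also stood apart in skin keratinocyte markers, at 61.9 TPM summed against 0.0712 to 0.359 TPM in the other 4, whose part in the Myc value was not tested. These were 2 of 40 checks of a member in a group of 4 to 10 tumors, and chance alone gives about 1 in 20. Without TAK-243 replicate 1, the log2 fold change of Myc between the groups was -0.62, against -0.31 with it.

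The effect of TAK-243 on Mxi1 in cultured cells differed with IFN-γ, by an interaction of -0.41 on the log2 scale (SE 0.0936, edgeR adjusted p = 0.0131). The call was lost in 7 of the 8 fits without 1 library, and on the TPM scale the value was -0.14 (limma adjusted p = 0.544).

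The values of Mxi1 with IFN-γ had opposite signs in the 2 cell experiments. In NC cells the log2 fold change was -0.12 and not called (edgeR adjusted p = 0.224), with both stimulated cultures (61.7 and 60.2 CPM) below both others (63.7 and 68.7 CPM). In control cells it was 0.30 and called (edgeR adjusted p = 2.71e-04), with both stimulated cultures (79.9 and 79.7 CPM) above both others (66.6 and 63.2 CPM). The cultures belong to separate experiments, and the difference was not tested. On the TPM scale the value in control cells was -0.0073, so the signs were then alike.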

How the results depend on the processing

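Counts of called genes depended on the tool. With DESeq2 they went from 127 to 528 in B16-BL6 sgUba1, 492 to 1804 in Myc-CaP labelled sgUba1, 4 to 706 in OE, 25 to 542 in TAK-243 tumors, 603 to 379 for IFN-γ in NC cells, 4216 to 2409 for IFN-γ in control cells and 347 to 217 for the TAK-243 by IFN-γ interaction. DESeq2 called 2 members in OE (main 0), 1 in TAK-243 tumors (main 0) and 0 in that interaction (main 1), where it gave Mxi1 no adjusted p. Limma-voom called 300 genes in Myc-CaP labelled sgUba1 and 2 in OE. RLE factors gave 292 for IFN-γ in NC cells and 414, against 720, for the sgUba1 by IFN-γ interaction. With no filter the counts were 204 in B16-BL6, 33 in OE, 45 in TAK-243 tumors, 1460 for IFN-γ in NC cells and 1487 for the sgUba1 interaction, where 1 member was then called.

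On log2(TPM + 1) they were 55 in B16-BL6, 228 in Myc-CaP labelled sgUba1, 8 in OE, 14 in TAK-243 tumors, 2614 against 4618 in sgUba1 cells, 4037 against 6119 with IFN-γ, 17 for IFN-γ in NC cells, 11 for the sgUba1 interaction and 0 for the TAK-243 interaction, and 0 members were called in Myc-CaP labelled sgUba1, IFN-γ in control cells and the TAK-243 interaction. There, Max (0.0012) and Mxd1 (0.48, adjusted p = 0.0479) in TAK-243 cells with IFN-γ and Mxi1 (-0.0073) with IFN-γ in control cells changed sign. The cause was not tested.

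Whether replicate numbers pair the samples was not settled, and in tumors samples of different number were not compared. Same-numbered samples correlated above 0.1 in 1 of 3 pairs in B16-BL6, 0 of 3 in Myc-CaP labelled sgUba1 and 0 of 3 in OE. They did so in 1 of 5 in TAK-243 tumors, 6 of 12 in the sgUba1 cells and 0 of 12 in the TAK-243 cells. Samples were centred on their group mean, so in cell groups of n = 2 both replicate numbers give the same r. Each such value is counted for both numbers, and samples of different number give it with the opposite sign. In the sgUba1 cells the median r was 0.107 and the highest 0.225. With the replicate block, the counts were 2 genes and 0 members in Myc-CaP labelled sgUba1, 0 genes in OE, 8 in TAK-243 tumors, and 6326 against 10243 genes and 2 against 4 members between the lines. The block changed no other count by over 1.5 times. Without the 4 high-Uba1 tumors, 1 gene and 0 members were called in Myc-CaP labelled sgUba1.

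Leaving out each library in turn, the lone sample of a cell group was assumed to vary like the other groups. Genes called then ranged from 43 to 320 in B16-BL6, 10 (without sgNC replicate 2) to 692 in Myc-CaP labelled sgUba1, 0 to 386 in OE, 1 to 299 in TAK-243 tumors, 2932 to 5641 in sgUba1 cells, 4345 to 7177 with IFN-γ, 35 to 2721 for IFN-γ in NC cells, 14 to 2622 for the sgUba1 interaction, 8940 to 9669 in TAK-243 cells, 9107 to 10013 with IFN-γ, 2835 to 4221 for IFN-γ in control cells, 85 to 329 for the TAK-243 interaction and 8438 to 11457 between the lines. Members called ranged from 0 to 0 in B16-BL6, 0 to 1 in Myc-CaP labelled sgUba1, OE, TAK-243 tumors and the TAK-243 interaction, 3 to 5 in sgUba1 cells and between the lines, 3 to 6 with IFN-γ, 0 to 2 for IFN-γ in NC cells and the sgUba1 interaction, 5 to 5 in TAK-243 cells, 5 to 7 with IFN-γ and 3 to 4 for IFN-γ in control cells. Myc in sgUba1 cells ranged from -0.20 to 0.14, reversing without NC replicate 2, and Mxd1 between the lines from -0.53 to 0.28, reversing without Myc-CaP sgNC replicate 2.

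Of the single members' values, limma-voom kept direction and side of the threshold for 104 of 104, DESeq2 for 89 of 94, RLE factors for 103 of 104, no filter for 103 of 104, the block for 101 of 104, TPM for 88 of 104 and leaving out a library for 789 of 840. Mycn and Mycl had at most 12 counts a library and could not be tested, and Mxd3 rested on 14 to 179 counts in Myc-CaP tumors.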
